A study of Oryctolagus cuniculus with 30 samples.

Results

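The genes described here encode mitochondrial ribosomal proteins, and comprised every gene of the count table whose symbol starts with MRPL or MRPS followed by a digit. This gave 75 of 31346 genes, all of which passed the filter on low counts. Mitochondrial ribosomes are built in the matrix from nuclear-encoded proteins and ribosomal RNA transcribed from mitochondrial DNA. They translate the few respiratory chain proteins that mitochondrial DNA encodes, so their genes are expressed in nearly every cell and at high levels in tissues that respire heavily, such as muscle. By known structure, 49 members belong to the large subunit, including MRPS30 and MRPS18A despite their names, and 25 to the small subunit. The remaining one, MRPS36, is now known as a component of the 2-oxoglutarate dehydrogenase complex of the citric acid cycle.

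RNA was sequenced from dissected mucosa of the vocal folds of 15 rabbits (New Zealand white), 3 in each of 5 groups, with 1 library for each fold and thus 30 libraries. Control animals were neither injured nor injected. The other 4 groups had the superficial mucosa stripped from both folds. Of these, the injury only group was not injected, while the Col1, VFLP (man) and VFLP (au) groups received 20 µL of collagen type I or of a hydrogel of that label in both folds 7 days after stripping; the series title describes these hydrogels as derived from vocal fold lamina propria. Tissue of the stripped groups was taken 28 days after treatment. Libraries held 14.2 to 31.9 M gene reads, of which 28619 to 63950 fell on the 75 members. Batch C held all control libraries and 5 of injury only, and batch D the other injury only library and all injected groups, so that injection and batch cannot be told apart from these groups except through that library. Genes of squamous epithelium and of fibroblasts were detected in every library (all 13 and all 14 listed genes found in the table), as the tissue label implies. The 2 folds of an animal were summed, and levels are depth-scaled counts (CPM) normalised by trimmed means (TMM), with SD over 3 animals. Fold changes come from edgeR's quasi-likelihood test with Benjamini-Hochberg adjustment over all genes, an adjusted p under 0.05 being required of every gene said to have risen or fallen. SE is that of the log2 fold change, approximated from the F statistic.

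The summed level of the 75 members was highest in control animals. It was 2228, 3343 and 2688 CPM in the control animals, 1730, 1663 and 1689 CPM in injury only, 1650, 1727 and 1597 CPM in Col1, 1756, 1444 and 1543 CPM in VFLP (man) and 1875, 2049 and 1669 CPM in VFLP (au). The control animals thus lay above the 12 stripped ones, whose groups overlapped one another except that VFLP (man) animals 2 and 3 lay below every animal of the other groups. As a plain share of reads, leaving out 37 entries with a KEF51 tag that are treated in the closing section, members took 0.229, 0.286 and 0.248% in control animals, and 0.186 ± 0.00971% in injury only, 0.178 ± 0.00192% in Col1, 0.183 ± 0.0106% in VFLP (man) and 0.203 ± 0.0212% in VFLP (au) (SD, n = 3 animals each). On this scale too every control animal lay above every stripped one, the nearest being VFLP (au) animal 2 at 0.225%. As a share of all gene reads, KEF51 entries included, members took 0.208, 0.211 and 0.214% in control animals, 0.177 ± 0.0113% in injury only, 0.171 ± 0.0029% in Col1, 0.178 ± 0.0119% in VFLP (man) and 0.195, 0.22 and 0.176% in VFLP (au) animals 1, 2 and 3. There VFLP (au) animal 2 lay above all 3 control animals, whose KEF51 share was also the highest of the groups.

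**Figure D1:**
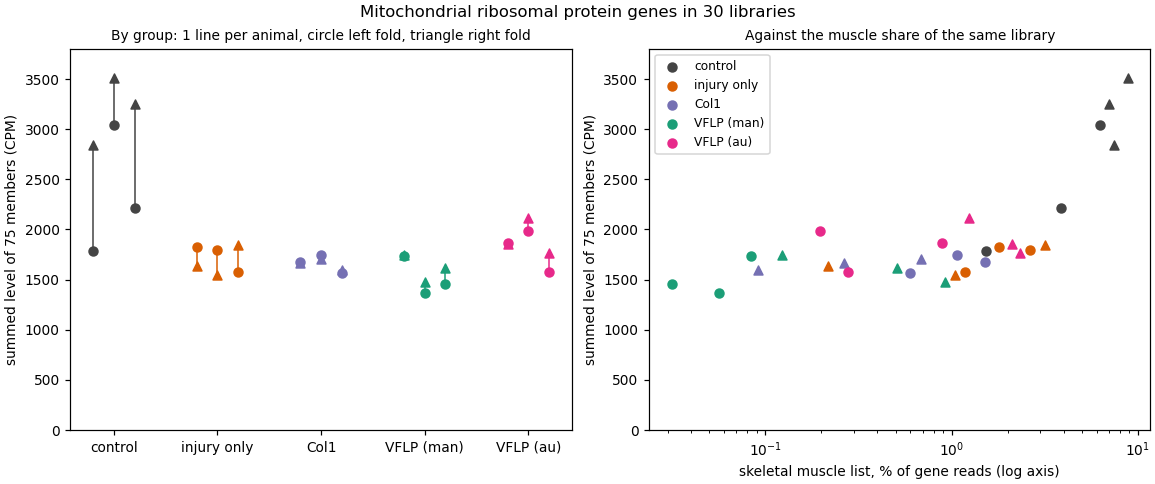
Summed level of the 75 members in each of the 30 libraries by group (left panel, CPM) and against the share of gene reads on skeletal muscle genes in the same library (right panel, percent, log axis); circles are left folds, triangles right folds, and lines join the folds of an animal. Control libraries reached 3513 CPM, but the left fold of control animal 1 lay among the stripped libraries at 1784 CPM.

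Folds differed within control animals. Left folds had 1784, 3042 and 2209 CPM and right folds 2843, 3513 and 3250 CPM in animals 1, 2 and 3. Genes of skeletal muscle, which underlies the mucosa, took unequal shares of reads in these libraries. The 24 muscle genes found of 30 listed took 1.53, 6.26 and 3.85% of gene reads in the left folds and 7.42, 8.81 and 7.01% in the right. The muscle list took 0.217 to 3.16% of gene reads in injury only libraries, 0.0913 to 1.51% in Col1, 0.0315 to 0.924% in VFLP (man) and 0.197 to 2.33% in VFLP (au), and none of the defining muscle genes ACTA1, MYH1, TNNC2, ATP2A1 and MB was at 0 in any library. In every control animal the fold with more muscle reads had the higher summed level of the members in CPM, and the 4 control libraries above 6% muscle had 2843 to 3513 CPM. As a share of all gene reads the order was reversed in control animal 2, at 0.213% in the left fold and 0.208% in the right. Outside the KEF51 entries these folds had 0.282 and 0.293%. The control library of lowest muscle share, at 1.53%, had 1784 CPM of the members, while the 6 injury only libraries had 1541 to 1848 CPM over their whole range of muscle shares. The part of muscle in the members' difference was not tested. With folds summed, the muscle list's mean log2 CPM was 9.41, 10.7 and 10 in control animals. It was 6.96, 8.1 and 8.55 in injury only and at most 7.66 in the injected animals. The fit with a muscle covariate given next therefore cannot tell muscle level from group. Lower cell numbers of a type and less RNA per cell cannot be told apart in such bulk samples.

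Injury only was compared with control to see how stripped folds without an injection differed from uninjured ones. Of the 75 members 47 fell and 0 rose (22.1% of all genes changed), against 13.7% of 17815 genes that fell and 8.33% that rose. The median log2 fold change of the members was -0.60, that of all genes tested 0.02. Of the members, 73 had a fold change below 0, against 48.5% of all genes, and in 54 every injury only animal lay below every control animal, against 21.9% of all genes. Both subunits took part, with 30 of 49 large-subunit members (median -0.54) and 16 of 25 small-subunit members (median -0.70) having fallen, besides MRPS36. With KEF51 entries left out and library totals in place of TMM, 27 members fell and 0 rose (median -0.34), against 8.85% of all genes that fell and 23.2% that changed in either direction, whereas leaving out the entries under TMM gave 47. A fit of the 2 groups alone gave 16 members (median -0.53), against 12.3% of all genes. The count was 28 without control animal 2, the control animal of highest muscle share. The share of all genes that fell without that animal is not given here. With the muscle level as a covariate 3 members passed (MRPL19, MRPL51 and MRPS7), at a median of -0.62, against 2.46% of all genes, and with left folds alone 0 members and 0 genes passed, at a median of -0.43 (33 members and 3756 genes at an unadjusted p under 0.05).

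**Figure D2:**
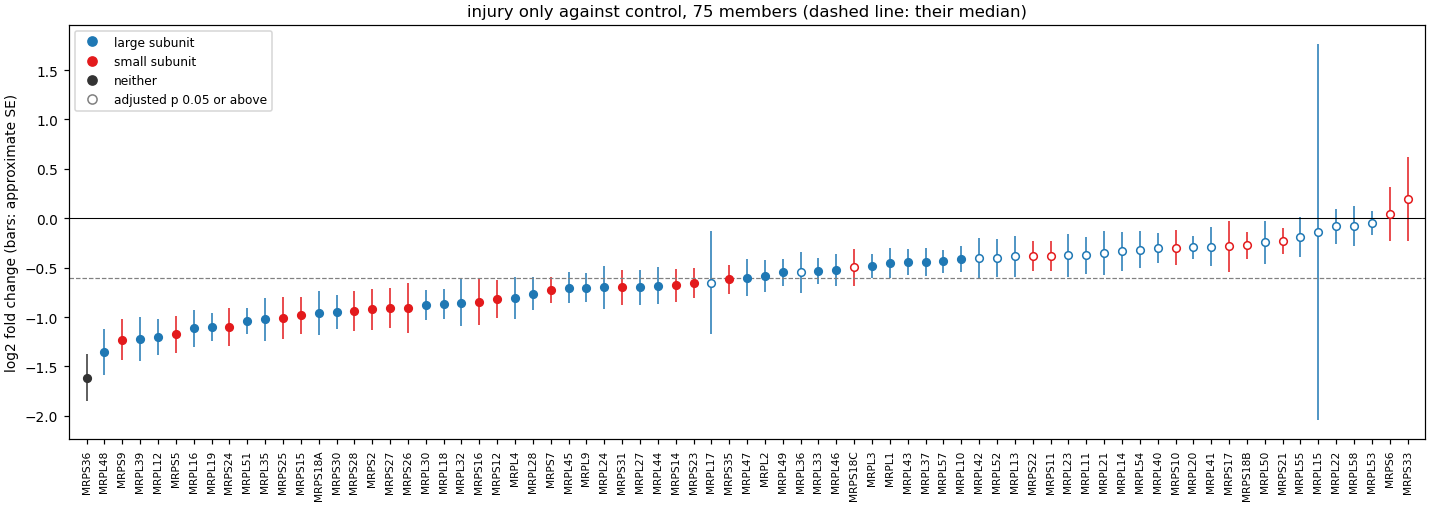
Log2 fold change of each member in injury only against control, with approximate SE; filled points passed an adjusted p of 0.05, blue is the large subunit, red the small subunit, and the dashed line the members' median of -0.60. Changes run from -1.61 for MRPS36 to 0.19 for MRPS33, and MRPL15 and MRPL17 have wide error bars.

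MRPS36 had the largest change of the family. It stood at 53.7, 121 and 85.3 CPM in control animals and at 23, 28.5 and 29 CPM in injury only, a 3.06-fold fall (SE 0.24, adjusted p = 0.0019). The control animals varied more than 2-fold among themselves, and each lay above every injury only animal with folds summed. Single folds overlapped, with 24.7 CPM in the left fold of control animal 1 and 27.4 CPM in that of injury only animal 1. MRPL48, of the central protuberance of the large subunit, went from 33.5, 63.9 and 44.5 CPM to 17.9, 17.5 and 18.8 CPM (2.56-fold, SE 0.23, adjusted p = 0.003). MRPL12, the counterpart of the bacterial stalk protein that recruits translation factors, went from 56.9, 104 and 80.4 CPM to 31.4, 33.6 and 33.8 CPM (2.31-fold, SE 0.18, adjusted p = 0.0019). In each of these the stripped animals were close together and the controls wide apart, with control animal 2 the highest. MRPL12 also overlapped by single folds, at 32.8 CPM in the left fold of control animal 1 and 37.3 CPM in that of injury only animal 1.

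The lowest p values were those of MRPL51 and MRPL19, whose controls were less spread than those of MRPS36, MRPL48 and MRPL12. MRPL51 was at 37.9, 52.9 and 48.9 CPM in control and 19.6, 22 and 23.8 CPM in injury only (2.06-fold lower, SE 0.13, adjusted p = 0.0012). MRPL19 was at 39.7, 59.8 and 52.9 CPM against 20.2, 23.5 and 24 CPM (2.15-fold lower, SE 0.14, adjusted p = 0.0014). Both are large-subunit proteins, and both still passed with the muscle covariate, at 2.1-fold and 2.05-fold lower, though near the threshold (adjusted p = 0.042 and 0.043). Of the small subunit, MRPS5 and MRPS24, which line the entry of the messenger RNA, fell 2.26-fold and 2.14-fold (SE 0.19 each), and MRPS9, whose bacterial counterpart touches the transfer RNA of the peptidyl site, fell 2.34-fold (SE 0.21). MRPL16 fell 2.17-fold (SE 0.19) and MRPL30, the member with the highest level at a mean of 166 ± 41.1 CPM in control and 90.9 ± 4.13 in injury only, fell 1.84-fold (SE 0.15). In these 5 genes too, no injury only animal reached the lowest control with folds summed. Single folds overlapped in MRPS9 and MRPS24. The left fold of control animal 1 had 28.4 and 10.2 CPM, and that of injury only animal 1 had 28.7 and 10.3 CPM. Single folds are not given here for every member.

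Core parts of the ribosome changed by unequal amounts. In the stalk, MRPL12 fell more than the stalk base protein MRPL10, which went from 40.9 ± 4.75 to 29.5 ± 0.739 CPM (1.33-fold, SE 0.13, adjusted p = 0.045), and MRPL11, at the site where elongation factors bind, was 1.29-fold lower (SE 0.19, adjusted p = 0.17). MRPL3, of the catalytic core, fell 1.4-fold (SE 0.12, adjusted p = 0.016), and MRPL45, which sits at the tunnel exit by the inner membrane, 1.63-fold (SE 0.16, adjusted p = 0.0094). MRPL44, a protein related to RNase III, fell 1.61-fold (SE 0.19, adjusted p = 0.023). MRPL37, second by level, fell 1.36-fold (SE 0.14, adjusted p = 0.041), and MRPL32, a member of low counts at 5.88 ± 1.04 CPM in control, 1.81-fold (SE 0.24, adjusted p = 0.024). MRPS12, of the decoding site, fell 1.76-fold (SE 0.19, adjusted p = 0.011). With 1 animal left out, the calls of MRPL10, MRPL37 and MRPL32 were lost in 5 of 6 cases (all but without control animal 1), with adjusted p up to 0.12, 0.12 and 0.085. That of MRPL44 was lost without control animal 2 or 3 or injury only animal 1 or 3 (up to 0.09) and that of MRPL3 without control animal 2 (0.056). Differences between genes in the size of the fall were not tested.

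The 3 relatives of bacterial protein S18 gave different values. MRPS18A, which sits in the large subunit, fell 1.94-fold (29.8 ± 9.86 to 15.1 ± 1.09 CPM, SE 0.22, adjusted p = 0.011). MRPS18B was 1.21-fold lower (44.4 ± 1.99 to 36.7 ± 1.2 CPM, SE 0.14, adjusted p = 0.17) and MRPS18C 1.41-fold lower (18.9 ± 2.62 to 13.7 ± 0.989 CPM, SE 0.18, adjusted p = 0.072). MRPS30, the other large-subunit protein with an S name, fell 1.93-fold (SE 0.18, adjusted p = 0.0041). MRPS22 was 1.3-fold lower (adjusted p = 0.095, and 0.02 without control animal 1); its span overlaps COPB2 in the RefSeq table, and 84.6% of the reads at its exons were on the other strand and not counted for it.

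In 21 members the groups overlapped. Among these, MRPL58, which frees stalled peptides from the ribosome, had 11.2, 11.3 and 10.7 CPM in control and 12.3, 8.98 and 10.6 CPM in injury only (1.05-fold lower, SE 0.20, adjusted p = 0.82). MRPS6 had 31.9, 38.3 and 32.9 CPM and 42.3, 33.2 and 23 CPM (log2 fold change 0.04, SE 0.27, adjusted p = 0.93), and SLC5A3 lies within its span, so that reads on shared exons could be set aside as ambiguous. MRPL54, of low counts, had 7.14 ± 1.12 and 5.56 ± 0.542 CPM (1.25-fold lower, SE 0.19, adjusted p = 0.25). Besides MRPS6, the only member with a positive fold change was MRPS33, at 0.19 (SE 0.43, adjusted p = 0.78), whose animals differed widely.

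MRPL15, MRPL17 and MRPS33 differed between animals within groups far more than other members did, with SDs of log2 CPM within groups of 1.84, 0.66 and 0.58, against 0.33 for the next, MRPS17. MRPL15 had at most 7 reads in both folds together in 6 animals (control 3, injury only 3, Col1 1 and 2, VFLP (man) 1 and 3) and 169 to 488 reads in the other 9. No animal fell between these values, and both groups of animals span control and stripped folds. MRPL17 had 70.5 CPM in control animal 1, 89.3 in VFLP (man) animal 1 and 77.8 in VFLP (au) animal 1, and 24.3 to 32.1 CPM in the other 12. MRPS33 had 15.9 to 18 CPM in 4 animals (control 1, Col1 1 and 3, VFLP (man) 3), 36.2 to 40.9 CPM in 9, and 67.5 and 75.2 CPM in VFLP (au) animals 1 and 2. The left and right folds of an animal gave like values, with correlations over 15 animals, after removal of group means, of 0.99, 0.97 and 0.955, where the median member had 0.59; the folds share an animal, and these values are descriptions without a test. What distinguishes these animals was not tested.

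**Figure D3:**
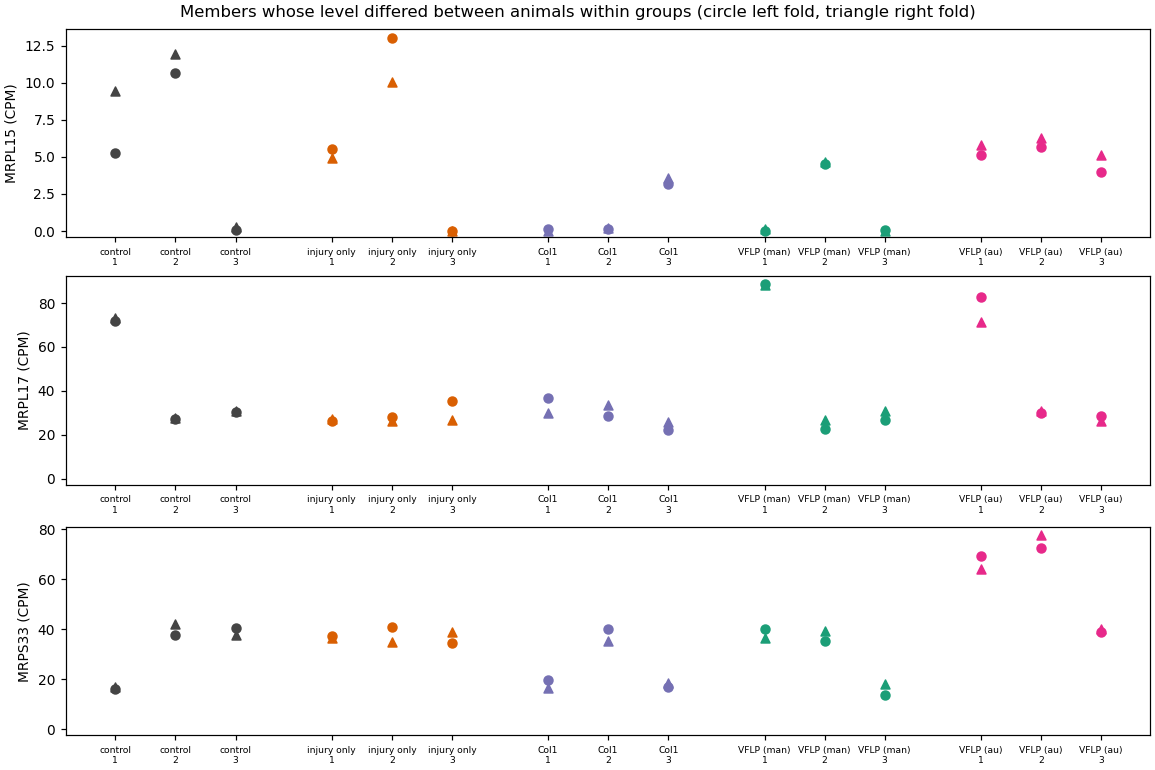
CPM of MRPL15, MRPL17 and MRPS33 in the left (circle) and right (triangle) fold of each of 15 animals, numbered within groups. MRPL15 is near 0 in 6 animals in both folds, MRPL17 is above 70 CPM in 3 animals, and MRPS33 takes low, middle and high levels.

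The genes that serve the same machinery were followed from fixed lists, and their counts stand beside the 13.7% of all genes that fell and the median of 0.02. Of 5 mitoribosomal proteins with other names 3 fell in injury only against control, namely PTCD3 (1.85-fold), DAP3 (1.6-fold) and AURKAIP1 (1.57-fold). Of 17 translation factors and messenger RNA stabilisers 10 fell and 0 rose, at a median of -0.81. Among them LRPPRC, which stabilises mitochondrial messenger RNAs, fell 2.21-fold, the elongation factor GFM1 2.25-fold, TUFM, which delivers transfer RNA, 1.72-fold and the recycling factor MRRF 1.97-fold. Of 25 assembly and ribosomal RNA modification genes 9 fell and 0 rose (median -0.39), including MTERF4 (2.14-fold), MTERF3 (2-fold) and ERAL1, a chaperone of small-subunit RNA (1.8-fold). Of 16 mitochondrial aminoacyl-tRNA synthetases 3 fell (AARS2, NARS2 and IARS2) and 0 rose, at a median of -0.28; at 18.8% the share that fell was near that of all genes.

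Upstream, 6 of 14 genes of mitochondrial DNA transcription and replication fell and 0 rose, among them TFAM, which packages mitochondrial DNA (1.87-fold), and TFB2M, a transcription initiation factor (1.98-fold). Of 12 regulators 3 fell, the nuclear receptors ESRRA (2.1-fold) and ESRRB (6.21-fold) and the coactivator PPARGC1B (3.22-fold). NRF1 and GABPA, factors known to bind promoters of many mitochondrial genes, had log2 fold changes of 0.01 (adjusted p = 0.96) and -0.23 (adjusted p = 0.26). All 20 nuclear oxidative phosphorylation genes tested fell, at a median of -1.54. Their summed level was 3.61 ± 0.672 times that of the members in control and 1.94 ± 0.21 times in injury only (SD, n = 3), with no overlap of animals. Single folds did overlap in this ratio, at 1.97 in the left fold of control animal 1 and 2.25 in that of injury only animal 2. Cytosolic ribosomal proteins, made by another set of genes, had 1 of 72 lower and 0 higher with a median of 0.08, and their summed level was 10.2 ± 1.7 times that of the members in control and 17.2 ± 1.09 times in injury only. The animals did not overlap in this second ratio either, which does not depend on how libraries are scaled. Beside the muscle share given above, fibroblast genes had 5 of 14 lower (median -0.95), adipocyte genes 2 of 3 lower (-3.06) and endothelial genes 2 of 9 lower (-0.93). Higher were 6 of 13 immune cell genes (1.37), 4 of 11 secretory (2.39) and 2 of 11 ciliated epithelial genes (3.67). Of all genes 13.7% fell and 8.33% rose. Between injury only folds, summed levels ran from 656 to 155500 CPM for secretory and from 14.4 to 1045 CPM for ciliated genes. Squamous epithelial genes had 0 of 13 past the test (0 at an unadjusted p under 0.05, median -0.17). The part of these in the change of the members was not tested.

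Each injected group was next set against injury only, to ask whether an injected material altered the members in stripped folds. No member passed in any of these comparisons. In Col1 the members' median log2 fold change was 0.01 (36 of 75 below 0), with 0 of 17770 genes past the test (0% called; 2530 genes and 2 members at an unadjusted p under 0.05; DESeq2 called 0 members and 2.14% of all genes, and limma voom 0 of both). The lowest p values were those of MRPL2, near the catalytic centre (18.2 ± 1.64 in injury only to 14.2 ± 0.566 CPM, 1.28-fold lower, SE 0.14, adjusted p = 0.3), MRPS21 (1.23-fold lower, SE 0.13, adjusted p = 0.33) and MRPL49 (1.21-fold higher, SE 0.14, adjusted p = 0.37).

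In VFLP (man) the median was -0.10, with 56 of 75 members below 0, against 49.6% of all genes. Past the test were 0 members, against 1.06% of all genes, 0.99% lower and 0.0732% higher. At an unadjusted p under 0.05 were 3 members, against 17.2% of all genes. DESeq2 called MRPL2 alone and 7.03% of all genes, and limma voom 0 of both. MRPL12 had 31.4, 33.6 and 33.8 CPM in injury only and 23.2, 23.3 and 24.1 CPM in VFLP (man), 1.4-fold lower (SE 0.18, adjusted p = 0.2). The groups did not overlap and the VFLP (man) animals were within 1 CPM of each other, yet the difference did not pass over all genes. MRPL2 was 1.32-fold lower (SE 0.14, adjusted p = 0.17) and MRPS36 1.45-fold lower (SE 0.24, adjusted p = 0.28). In all, 14 members were lower in every VFLP (man) animal than in any injury only animal, against 13.2% of all genes, and 0 were higher in every animal, against 11.6%.

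In VFLP (au) the median was 0.12, with 21 of 75 members below 0, against 48.8% of all genes, and 0 past the test, as for all genes (0% called; 2289 genes and 4 members at an unadjusted p under 0.05; DESeq2 called 0 members and 1.13% of all genes, and limma voom 0 of both). In 15 members every VFLP (au) animal lay above every injury only animal, against 12.8% of all genes, and in 2 below, against 9.03%. MRPL49 had the lowest p (36.2 ± 1.32 to 48.6 ± 7.79 CPM, 1.34-fold higher, SE 0.14, adjusted p = 0.35), followed by MRPS7 (1.25-fold higher, SE 0.13, adjusted p = 0.36) and MRPL36 (1.4-fold higher, SE 0.20, adjusted p = 0.36). The muscle share in VFLP (au) was 1.17 ± 0.444% of reads outside the KEF51 entries, between the 1.79 ± 0.674% of injury only and the 0.305 ± 0.219% of VFLP (man). Col1 had 0.665 ± 0.286%. Animals of VFLP (au) (1.5, 0.668 and 1.35%) and injury only (1.03, 2.05 and 2.31%) overlapped. The relation of this share to the members was not tested.

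**Figure D4:**
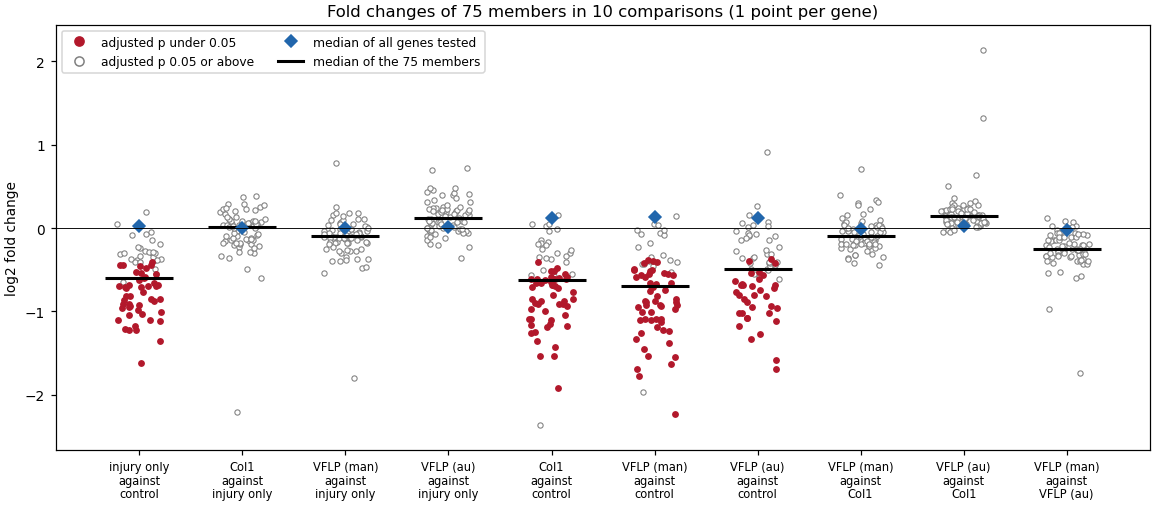
Log2 fold changes of the 75 members in 10 comparisons (1 point per gene; red, adjusted p under 0.05), with the members' median (line) and the median of all genes tested (diamond). Members fall in the 4 comparisons with control, with medians of -0.49 to -0.69, and no member passes in the other 6.

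Among the injected groups, which share a batch, no member passed either. VFLP (man) against VFLP (au) had the widest difference, with a median of -0.25, against -0.02 for all genes, and 68 of 75 members below 0, against 52.4% of all genes. In 23 members every VFLP (man) animal lay below every VFLP (au) animal, against 9.22% of all genes, while 0.0505% of all genes passed the test. At an unadjusted p under 0.05 there were 15 members and 1489 of 17815 genes. DESeq2 called 0 members and 2.17% of all genes, and limma voom 0 of both. MRPL12 was the lowest by p, at 23.2, 23.3 and 24.1 CPM against 37.7, 39.4 and 29.8 CPM (1.51-fold lower, SE 0.18, adjusted p = 0.28), then MRPS7 (1.31-fold lower, SE 0.13, adjusted p = 0.36) and MRPL20 (1.26-fold lower, SE 0.12, adjusted p = 0.4). Members had a median of -0.10 in VFLP (man) against Col1 and of 0.14 in VFLP (au) against Col1, where 4 of 75 were below 0, against 46% of all genes. In both, 0% of genes passed in edgeR and limma voom, and DESeq2 called 0 members and 2.18 and 0.197% of all genes. At an unadjusted p under 0.05 were 3 and 1 members, against 10.3 and 4.65% of all genes. By p these comparisons were led by MRPS11 (1.3-fold lower, adjusted p = 0.42), MRPS24 (1.36-fold lower, adjusted p = 0.44) and MRPL12 (1.34-fold lower, adjusted p = 0.46) in VFLP (man) against Col1. In VFLP (au) against Col1 they were led by MRPS33, one of the 3 genes that varied between animals (2.49-fold higher, SE 0.44, adjusted p = 0.99), MRPS30 (1.28-fold higher) and MRPS17 (1.41-fold higher).

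Against uninjured control, which the 3 injected groups and injury only share as their reference, members fell in every injected group and 0 rose, though with KEF51 entries left out and library totals in place of TMM 1 member rose in VFLP (man), MRPL53, and 1 in VFLP (au), MRPS33. In Col1 50 of 75 fell (18.6% of all genes fell), with a median of -0.62; in VFLP (man) 55 fell (20.5% of all genes), with a median of -0.69; and in VFLP (au) 35 fell (16.7% of all genes), with a median of -0.49. Medians of all genes were 0.12, 0.13 and 0.11. With library totals and KEF51 entries left out the members' medians in VFLP (man) and VFLP (au) were -0.36 and -0.25, those of all genes 0.44 and 0.33, and 34 and 26 members fell, and with 2 groups alone 22 fell in VFLP (au). The shares of all genes that fell in these settings are not given here, so these counts are not set against a background. Fold changes were below 0 in 71, 72 and 66 members, against 44.1, 43.9 and 44% of all genes, and 56, 60 and 49 members had an unadjusted p under 0.05, against 43.2, 47.4 and 40.5%. MRPS36 was 22.9 ± 5.36, 18.4 ± 0.669 and 26.7 ± 1.02 CPM in the 3 groups against 86.6 ± 33.5 in control, 3.78-fold, 4.69-fold and 3.24-fold lower (SE 0.25 each; adjusted p = 0.0004, 8.3e-05 and 0.0011). MRPL51 fell 2.38-fold, 2.59-fold and 2.11-fold (SE 0.14 each), and MRPL12 fell 3.41-fold in VFLP (man) (SE 0.18). MRPL19 fell 2.39-fold in Col1 and 2.02-fold in VFLP (au) (SE 0.15 each). These groups and control lie in different batches, and a batch term rests on the single injury only library of batch D. With that term 0 members passed in any of the 3 comparisons, against 0, 29 and 0 of all genes, while the members' medians were -0.63, -0.72 and -0.47. With the muscle covariate 0 members and 0, 2 and 0 of all genes passed, at medians of -0.65, -0.87 and -0.56. With left folds alone 0, 30 and 11 members passed, against 0.108, 17.3 and 10.3% of all genes, at medians of -0.48, -0.56 and -0.33.

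The genes whose log2 CPM followed the members' mean most closely over the 15 animals, among 12190 genes with a symbol and at least 1 CPM, were ZC3HC1 (Pearson r 0.988), YBX1 (0.986), MIX23 (0.981), THEM4 (0.977) and COPS3 (0.976). With group means removed their correlations were 0.962, 0.937, 0.952, 0.877 and 0.904. YBX1, a nucleic acid binding protein, averaged 781 CPM in control, 375 in injury only, 380 in Col1, 346 in VFLP (man) and 472 in VFLP (au). These correlations describe 15 animals that share the control group's high values and the same scaling.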

How the data were processed

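The authors deposited raw counts of reads per gene for each library, made with STAR 2.7.10b per the submitters' processing notes. The sources used here name neither the genome build nor the annotation. Per the labels' protocols, libraries were made with a messenger RNA kit from RNA with an integrity number above 7. Counts on the strand of the fourth column were used, leaving out the 4 summary rows above the genes. Gene symbols are those of the files, and 72 of 75 members were found among RefSeq names (MRPL15, MRPS28 and MRPS36 were not), which served for names and neighbours only. Protein and promoter sequences were not used here, so the planned promoter motifs were not described.

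Folds of an animal were summed. The quasi-likelihood test of edgeR 4.0.16 in R 4.3.3 was fitted over all genes kept by filterByExpr (minimum count 10), after TMM scaling. Injury only against control and comparisons between materials used 16 units with batch as a covariate, the injury only animal with a fold in each batch being divided; this leaves its batch D fold without weight in injury only against control. The other comparisons used 15 animals without a batch term. Alternatives were DESeq2 1.42.0, limma 3.58.1 (voom) and those of the closing section. Log2 CPM for levels and correlations used an offset of 0.5. No 2 libraries were identical, and the fit of injury only against control was tested on simulated data. It recovered 8 of 68 genes given a log2 change of 0.6 in either direction, 42 of 64 at 1 and 64 of 67 at 2. Of 120 genes called there, 6 were false. The simulated spread was set beforehand and not taken from these animals. Replicate numbers did not pair animals across groups (6 of 30 same-number pairs had correlated deviations above 0.1, median r -0.04). Labels do not give litters or handling days, so p values measure the spread between these animals.

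Named members are the 10 of lowest adjusted p past the threshold with groups that do not overlap in injury only against control, the 3 of lowest p in other comparisons, 15 chosen for their roles, the 3 highest and lowest by level, and those of opposite sign. MRPL17, MRPS7, genes of the supporting lists and members passing with a covariate were named after their values were seen. The members, lists and rules were chosen with earlier results of these data known.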

Additional observations from a re-analysis of the deposited data

How the results depend on the processing

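Members past the threshold in injury only against control numbered 47, and 28 to 49 with 1 animal left out, the lowest without control animal 2. They numbered 0 with left folds alone, 3 with the muscle covariate, 16 with the 2 groups alone and 27 with library totals in place of TMM and KEF51 entries left out; this and leaving out the left fold of control animal 1 (54 members) were chosen after seeing the data. Counts of members given in this section without a share of all genes are not set against a background. That share differed between settings. With KEF51 entries left out, TMM gave 47 members and medians of -0.02 for all genes and -0.64 for the members, and library totals gave medians of 0.25 and -0.34, genes that fell making up 15 and 8.85% of those tested. The median ran from -0.69 to -0.49 with 1 animal left out and was -0.80 in right folds alone. Against control, left folds alone, a batch term and the muscle covariate gave 0, 0 and 0 in Col1, 30, 0 and 0 in VFLP (man) and 11, 0 and 0 in VFLP (au), with medians of -0.48, -0.63 and -0.65, of -0.56, -0.72 and -0.87, and of -0.33, -0.47 and -0.56. Library totals without KEF51 entries gave 35 in VFLP (man), with MRPL53 higher, at a median of -0.36, and a median of -0.25 in VFLP (au), where the 2 groups alone gave 22. Leaving out 1 animal gave 36 to 54, 44 to 58 and 26 to 49 members and medians of -0.77 to -0.51, -0.87 to -0.58 and -0.62 to -0.37 in Col1, VFLP (man) and VFLP (au); right folds gave a median of -0.82 in Col1. In Col1 against injury only the median of 0.0072 was -0.067 in left folds, -0.058 without KEF51 entries and -0.055 to 0.011 with 1 animal left out. In VFLP (man) against injury only DESeq2 called 1 member, and the median was -0.19 in left folds and -0.20 with the muscle covariate. The cause of each difference was not tested, apart from the scaling compared without KEF51 entries.

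The replicate number as a block (replicate block), which marks no shared animal, gave 42 members in injury only against control and changed no count of members by over 1.5 times.

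Genes of small change turned sign. MRPL58 had 0.158 with library totals (without KEF51 entries, as below) and ran from -0.178 to 0.0294 with 1 animal left out. MRPS6 had -0.049 with limma voom, -0.33 in right folds, -0.065 without a batch term, -0.031 without the left fold of control animal 1 and -0.287 to 0.275 with 1 animal left out. MRPL54 had 0.033 in left folds. MRPL15 had 0.197 in left folds, 1.39 with the muscle covariate, 0.148 with library totals and -1.18 to 0.604 with 1 animal left out. MRPS33 ran from -0.129 to 0.384 with 1 animal left out, and MRPS36 had 0.19 in VFLP (man) against injury only with the muscle covariate.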

Other observations

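The files hold 37 entries with a KEF51 tag, in the numbers of 13, 22 and 2 for tags with p, t and r that mammalian mitochondrial DNA has for proteins, transfer RNAs and ribosomal RNAs; the files do not pair them with gene names. They took 5.43 to 29% of gene reads in control libraries, 2.14 to 9.77% in injury only, 1.88 to 5.02% in Col1, 1.3 to 4.66% in VFLP (man) and 1.65 to 4.77% in VFLP (au). In 8 of the 13 p entries the same 5 animals (all 3 controls, injury only animal 2 and VFLP (man) animal 3) had over 10 times the level of the other 10. KEF51_p10, for example, had at least 5774 CPM, relative to reads outside these entries, in those 5 animals and at most 11.8 in the others, whereas KEF51_p01 had 9603 to 91980 with no such gap. These sums were therefore not compared between groups beside the members, whose scaling by trimmed means was repeated without the entries (47 members lower in injury only against control, the same 47). The reason for this split between animals was not tested.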
